A study of Caenorhabditis elegans with 8 samples.

Results

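The major sperm proteins (MSPs) of the nematode C. elegans are encoded by a family of genes named msp. The family was taken as the coding sequences (CDS) of the deposited table whose sequence name carries a gene symbol made of msp and a number, in the C. elegans annotation of RefSeq (WBcel235). This gave 30 genes among the 20505 CDS of the table. The annotation lists 35 such symbols, 31 of them protein coding and 4 pseudogenes.

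MSP is a small protein that nematodes make in the germ line as it forms sperm, and it is among the most abundant proteins of the sperm. It assembles into filaments that drive the crawling of the amoeboid sperm, a task that actin performs in most other crawling cells. Spermatocytes pack it into fibrous bodies before meiosis is complete, and sperm later release some of it as a signal for oocyte maturation and for contraction of the gonadal sheath. In hermaphrodites the germ line forms sperm in the last larval stage (L4) and then changes to oocytes, and spermatids shed their ribosomes into residual bodies as they form.

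Ribosome profiling sequences the short stretches of mRNA protected from nuclease digestion inside ribosomes, so its values report ribosome occupancy and not mRNA or protein. The 8 libraries came from whole worms of the wild-type strain N2, hatched from an egg preparation, grown on NGM plates with NA22 bacteria and washed in M9 before lysis. The first experiment held 4 libraries of young adults, 1 for each combination of monosome isolation (sucrose gradient or MicroSpin S-400 HR gel filtration column) and library preparation (an in-house protocol or the ARTseq kit). These 4 share a specimen number in their titles, so the spread between them is technical. The second experiment held 4 libraries of L4 worms that differed in the fragment length cut from the gel, with windows of 25 to 30, 28 to 30, 28 to 35 and 26 to 34 nt. The table numbers the L4 libraries 5 to 8 and which number had which window is not labelled, so they are named here by number. Nothing states that the L4 libraries came from separate cultures, so p-values measure only the spread between these libraries, which may be technical.

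Library totals are the read numbers by which the deposited values were scaled, and need not be the numbers of reads sequenced. They lay between 18018744 and 38132794 reads in young adults. In L4 libraries 5 and 6 they were 26078844 and 21814060 reads, and in L4 libraries 7 and 8 they were 4999364 and 3684924 reads. The library labelled L4 number 8 went against its label. Its 7 oocyte markers summed to 1491 RPKM, between 1631 and 1917 RPKM in young adults and between 8.78 and 8.92 RPKM in L4 libraries 5 to 7. RPKM is the number of reads of a feature scaled by its length and by the reads of the library. In library 8 the 3 yolk markers summed to 13964 RPKM (13523 to 13932 RPKM in young adults, 33.4 to 36.4 RPKM in L4 libraries 5 to 7) and the 4 L4 cuticle collagens to 51.2 RPKM (16.4 to 34.2 RPKM and 10594 to 10921 RPKM). Tests between stages are therefore given with and without it. The 6 sperm markers, genes needed for sperm function or activation other than msp, were above 0 in every library and summed to between 16.6 and 23.1 RPKM in young adults, between 29.9 and 33.7 RPKM in L4 libraries 5 to 7 and to 23.4 RPKM in library 8. Most of each sum was spe-11, at a mean of 16.75 RPKM in young adults and 17.63 RPKM in L4 libraries 5 to 7. Between the same groups the mean went from 1.45 to 4.90 RPKM in spe-41 and from 0.328 to 4.22 RPKM in fer-1. It went from 0.547 to 1.67 RPKM in spe-9, from 0.363 to 1.90 RPKM in spe-38 and from 0.207 to 0.986 RPKM in spe-42.

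The 30 genes lie on 2 chromosomes, 13 on chromosome II and 17 on chromosome IV. They are clustered: 14 members have at most 5 other protein-coding genes between them and the previous member. Neighbouring groups include msp-33, msp-32, msp-31 and msp-152 on chromosome II, and msp-81, msp-10 and msp-56 as well as msp-51, msp-113, msp-59 and msp-65 on chromosome IV. The feature length behind the RPKM was 412 nt for 24 of the 30 members, so most members were measured over a window of the same length. For these 24 it was 28 nt longer than the span in the annotation, and for 3 others it was 28 nt shorter. In msp-32 it was 545 nt against a span of 360 nt. The reason for these differences is not given. MSP genes are near-identical copies, and the sources used here do not say how the authors assigned reads that fit several copies. The sums and medians over the family are therefore given first, and the value of any single member is uncertain.

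The summed occupancy of the family in L4 libraries 5 to 7 lay within or just under the range of the young adults, and that of library 8 lay far under it. The 30 members summed to 1637 RPKM in the young-adult gradient in-house library, 1227 RPKM in the column in-house library, 1787 RPKM in the gradient kit library and 1415 RPKM in the column kit library. The sums in L4 libraries 5, 6, 7 and 8 were 1510, 1556, 1171 and 754 RPKM. L4 libraries 5 and 6 lay inside the young-adult range and library 7 just under it. The mean was 1516 ± 246 RPKM in young adults (SD, n = 4), 1248 ± 371 RPKM in all L4 libraries (SD, n = 4) and 1413 ± 210 RPKM in L4 libraries 5 to 7 (SD, n = 3). The L4 mean was thus 0.823 of the young-adult mean with all libraries and 0.932 of it without library 8. Without library 8 the means differed by less than the SD of either group, and with it by more than the SD of the young adults but less than that of the L4 libraries. Leaving out 1 library at a time moved the ratio between 0.755 and 0.932. In whole worms, fewer cells that form sperm and less msp translation per cell cannot be told apart.

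The median over the 30 members moved further than the sum. It was 49.5, 35.9, 45.1 and 38.1 RPKM in the young-adult libraries, in the order above, and 34.1, 32.1, 28.2 and 18.8 RPKM in L4 libraries 5 to 8. By label, all 4 L4 values lay under all 4 young-adult values. Library 8, which carries young-adult markers, had the lowest median, so the groups would overlap if it were placed with the young adults. The mean of these medians was 42.1 ± 6.30 RPKM in young adults (SD, n = 4), 28.3 ± 6.81 RPKM in L4 worms (SD, n = 4) and 31.5 ± 3.03 RPKM without library 8 (SD, n = 3), which gave ratios of 0.671 and 0.747. The sum gives more weight to the most occupied genes than the median does. The 6 highest members of each library held between 47.9% and 49.6% of the sum in young adults and between 52.3% and 58.5% of it in L4 libraries.

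As a share of the library totals, the family took 0.0663%, 0.0498%, 0.0725% and 0.0576% in the young-adult libraries. In L4 libraries 5 to 8 it took 0.0610%, 0.0632%, 0.0476% and 0.0305%. These shares rest on between 10372 and 27661 reads in young adults but on 2381 reads in L4 library 7 and 1125 reads in library 8. The Wilson 95% interval was 0.0458% to 0.0496% in library 7 and 0.0288% to 0.0324% in library 8, so library 8 lay under library 7 by more than counting error. Such intervals cover counting error only, since reads amplified by PCR are not independent molecules. Chromosome II supplied between 56.3% and 58.8% of the family's summed RPKM in each of the 8 libraries, although it holds fewer members than chromosome IV.

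**Figure D1:**
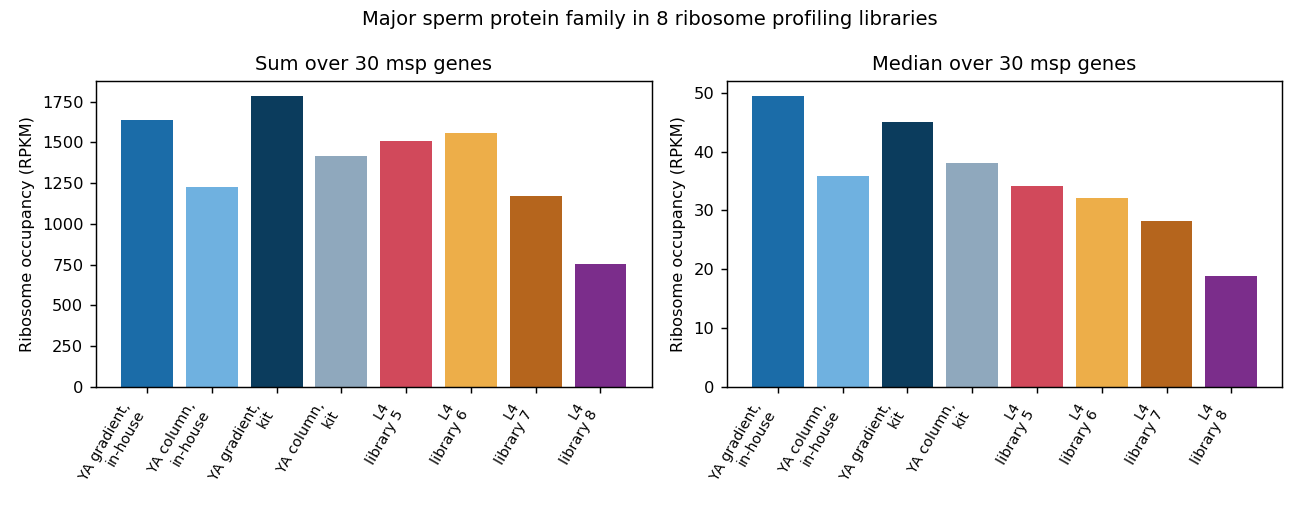
Ribosome occupancy of the msp family in each library, as the sum (left) and the median (right) over 30 msp genes in RPKM, with 1 bar per library and no error bars because each bar is a single library. The sums of L4 libraries 5 and 6 (1510 and 1556 RPKM) lie among the young adults (YA), whereas all 4 L4 medians lie under the lowest young-adult median of 35.9 RPKM.

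Occupancy was spread over many genes and no single copy dominated. The mean over the 8 libraries was at least 10 RPKM for 21 members and under 2 RPKM for 5 members, and 18 members had at least 10 RPKM in every library. The most occupied gene was msp-64 on chromosome II, with 178, 135, 216 and 157 RPKM in the young-adult libraries (gradient in-house, column in-house, gradient kit, column kit) and 148, 154, 126 and 86.3 RPKM in L4 libraries 5 to 8. It was the highest member in every young-adult library and in library 8, the library that carries young-adult markers. In L4 libraries 5 and 6 msp-50 was the highest, and in library 7 msp-36.

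Next in order came msp-50, also on chromosome II, with 149, 113, 124 and 106 RPKM in young adults and 157, 190, 110 and 53.4 RPKM in L4 libraries. For msp-36, on chromosome IV, the values were 102, 77.9, 155 and 119 RPKM in young adults and 139, 168, 132 and 61.3 RPKM in L4 libraries. In both genes the L4 values overlapped those of young adults, and library 8 alone lay well under the rest. The chromosome IV gene msp-76 had 151, 106, 132 and 100 RPKM in young adults and 88.0, 106, 65.1 and 72.5 RPKM in L4 libraries.

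For msp-142, on chromosome II, the 4 young-adult values of 108, 72.0, 83.3 and 66.8 RPKM stood beside 152, 172, 104 and 51.4 RPKM in L4 libraries. The chromosome IV gene msp-77 had 108, 79.1, 75.7 and 59.4 RPKM in young adults and 119, 119, 113 and 69.8 RPKM in L4 libraries. In L4 libraries 5 to 7 msp-77 was above all young adults, while msp-142 was above them in libraries 5 and 6 only. Among these 6 genes the means over 8 libraries ran from 150 RPKM (msp-64) to 93.0 RPKM (msp-77), and neighbours in that order overlapped in range. The other 15 members above 10 RPKM had means from 77.2 RPKM (msp-49) down to 19.2 RPKM (msp-38).

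At the other end, msp-113 had no read in any library and msp-51 had 1 read in all 8 libraries, in the young-adult column in-house library. The means of msp-32 and msp-79 were 0.358 and 0.465 RPKM, from 34 and 43 reads in all. The mean of msp-74 was 1.86 RPKM, from 58 reads. Between these and the 21 well-occupied members lay msp-10 (9.35 RPKM), msp-19 (8.36 RPKM), msp-63 (7.48 RPKM) and msp-56 (6.36 RPKM). Neighbours in a cluster differed widely in level: msp-113 and msp-51 at or near 0 share a cluster on chromosome IV with msp-59 at 26.8 RPKM, and msp-32 at 0.358 RPKM lies next to msp-33 at 38.02 RPKM.

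**Figure D2:**
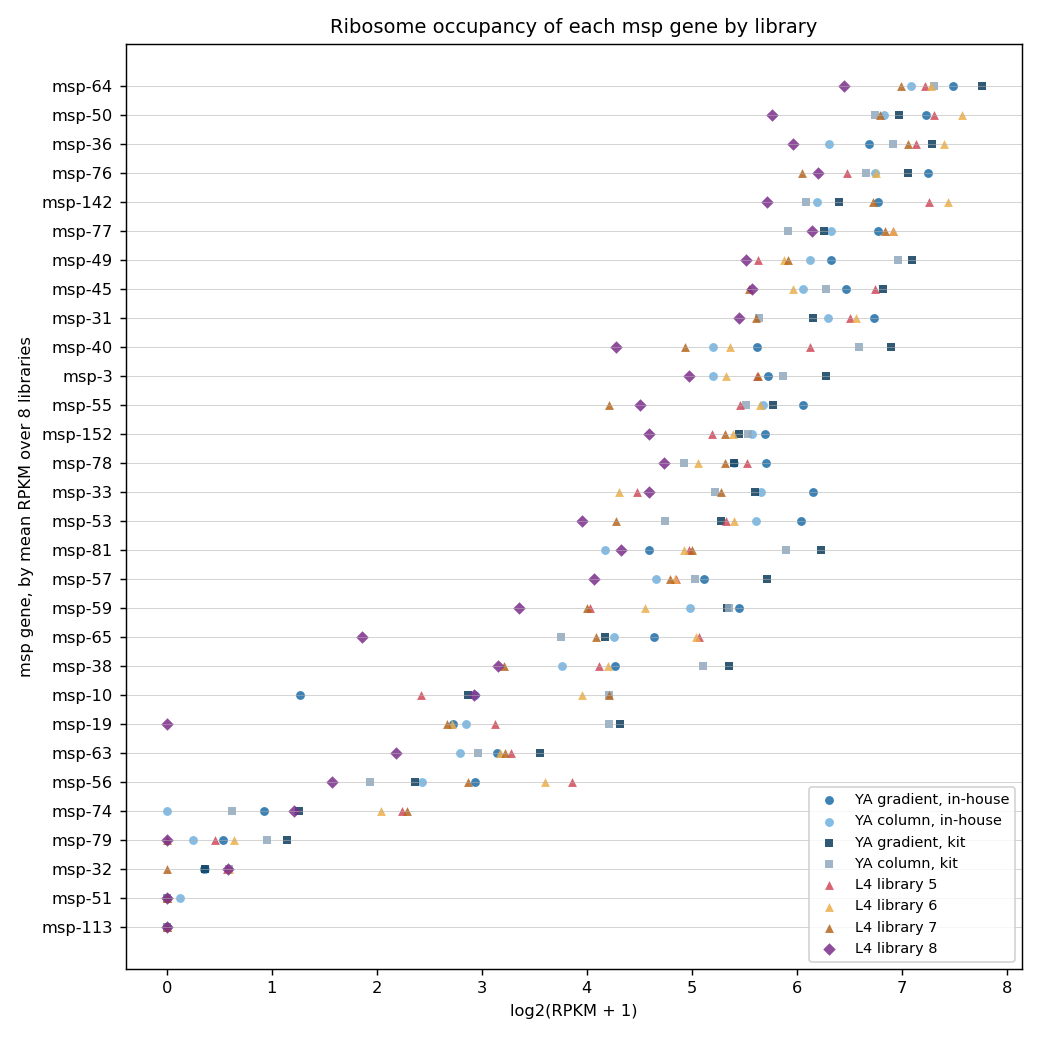
Each msp gene (rows, ordered by mean RPKM over 8 libraries) in each library, on a log2(RPKM + 1) axis. The gene msp-64 leads at a mean of 150 RPKM, and the purple diamonds of library 8 are the leftmost points for 18 genes.

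Monosomes collected on the column carried fewer msp reads than monosomes collected on the gradient. The family sum on the column was 0.750 of that on the gradient with the in-house preparation and 0.792 of it with the kit. The isolation methods were compared over the 4 young-adult libraries with limma on log2(RPKM + 1), together with library preparation, at an adjusted p under 0.05. Of the 25 members that passed the filter (at least 1 RPKM in at least 2 of the 4 libraries), 21 fell on the column and 1 rose. Across all 11569 CDS tested, 39.0% were called, 19.8% higher and 19.2% lower on the column. In 21 of the 25 members both matched pairs were lower on the column, against 37.0% of all CDS.

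The falls were of much the same size in most members. Near-identical copies may share reads, so these falls need not be separate observations of each gene. The median log2 difference over the 25 members was -0.40, against 0.02 over all CDS, and apart from msp-10 the members' differences had an SD of 0.14. The most occupied gene, msp-64, went from 178 to 135 RPKM in-house and from 216 to 157 RPKM with the kit, a log2 difference of -0.43 (SE 0.04, adjusted p = 0.00355). The 4 largest falls were those of msp-57 (-0.57, SE 0.07, adjusted p = 0.00432), msp-53 (-0.48), msp-45 (-0.48) and msp-31 (-0.47). In msp-57 the gradient libraries gave 33.6 and 51.4 RPKM and the column libraries 24.2 and 31.7 RPKM, in-house first.

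Against this trend msp-10 rose on the column, by a log2 difference of 1.50 (SE 0.11, adjusted p = 0.00355). It had 1.42 RPKM on the gradient and 6.66 RPKM on the column in-house (19 and 70 reads), and 6.30 and 17.5 RPKM with the kit (99 and 130 reads). Its neighbours msp-81 and msp-56 fell on the column, by 0.38 and 0.47 on the log2 scale, so members of a cluster went opposite ways.

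The 3 members not called were msp-59 (-0.23, adjusted p = 0.177), msp-152 (-0.02, adjusted p = 0.851) and msp-19 (0.01, adjusted p = 0.959). For msp-152 the column libraries were at 46.6 and 45.3 RPKM and the gradient libraries at 50.7 and 42.6 RPKM, so the groups overlapped. The fit has 1 residual degree of freedom for each CDS and the libraries come from 1 specimen, so these p-values speak of technical spread only.

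Library preparation split the family instead of moving it one way. The family sum with the kit was 1.09 times that of the in-house protocol on the gradient and 1.15 times on the column. Of the same 25 members, 11 rose and 8 fell with the kit, and 6 were not called. Of all 11569 CDS, 35.9% were called, 25.9% higher and 10.0% lower with the kit. The median log2 difference of 0.13 over members lay near the 0.10 over all CDS. With each library centred on its median, which moves the median over all CDS by over 0.1 to -0.02, the split was 9 higher and 12 lower. Over all 11569 CDS it was then 1663 higher and 2012 lower.

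The gene msp-81 had 23.2 and 17.0 RPKM with the in-house protocol and 74.2 and 58.7 RPKM with the kit (gradient and column), a log2 difference of 1.68 (SE 0.05, adjusted p = 0.000297). For msp-19 the values were 5.60 and 6.19 RPKM in-house against 19.0 and 17.5 RPKM with the kit (1.48, adjusted p = 0.000781). The other large rises were those of msp-10 (1.43) and msp-40 (1.33), the latter from 48.3 and 35.9 RPKM to 118 and 95.2 RPKM. In all of these genes but msp-10 both kit libraries lay far above both in-house libraries.

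The largest fall was that of msp-53, from 64.8 and 47.9 RPKM in-house to 37.8 and 25.9 RPKM with the kit, a log2 difference of -0.81 (SE 0.05, adjusted p = 0.000945). Next came msp-31 (-0.62), msp-56 (-0.53) and msp-33 (-0.49). On chromosome IV the neighbours msp-81 and msp-10 rose with the kit while msp-56, which lies 1 gene further on, fell.

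These differences recurred on both isolation methods. With the kit, 12 of the 25 members were higher on both gradient and column and 12 were lower on both, against 55.1% and 25.6% of all CDS, and msp-59 alone changed sign. The median gap between the log2 difference on the gradient and that on the column was 0.12, and the largest was 0.48 in msp-59. Both pairs share no library, but all 4 libraries share the specimen.

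The spread of members around their median was wider than that of CDS at large. The SD of the log2 difference between kit and in-house was 0.76 over 25 members on the gradient and 0.73 on the column, and 0.33 and 0.32 over all CDS with at least 1 RPKM in both libraries, given here with no test. On each isolation method 5 of 25 members differed more than 2-fold between preparations on the log2(RPKM + 1) scale, against 1.38% of all CDS on the gradient and 1.01% on the column. On both methods the 5 were msp-81, msp-19, msp-10, msp-40 and msp-38, and all were higher with the kit.

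**Figure D3:**
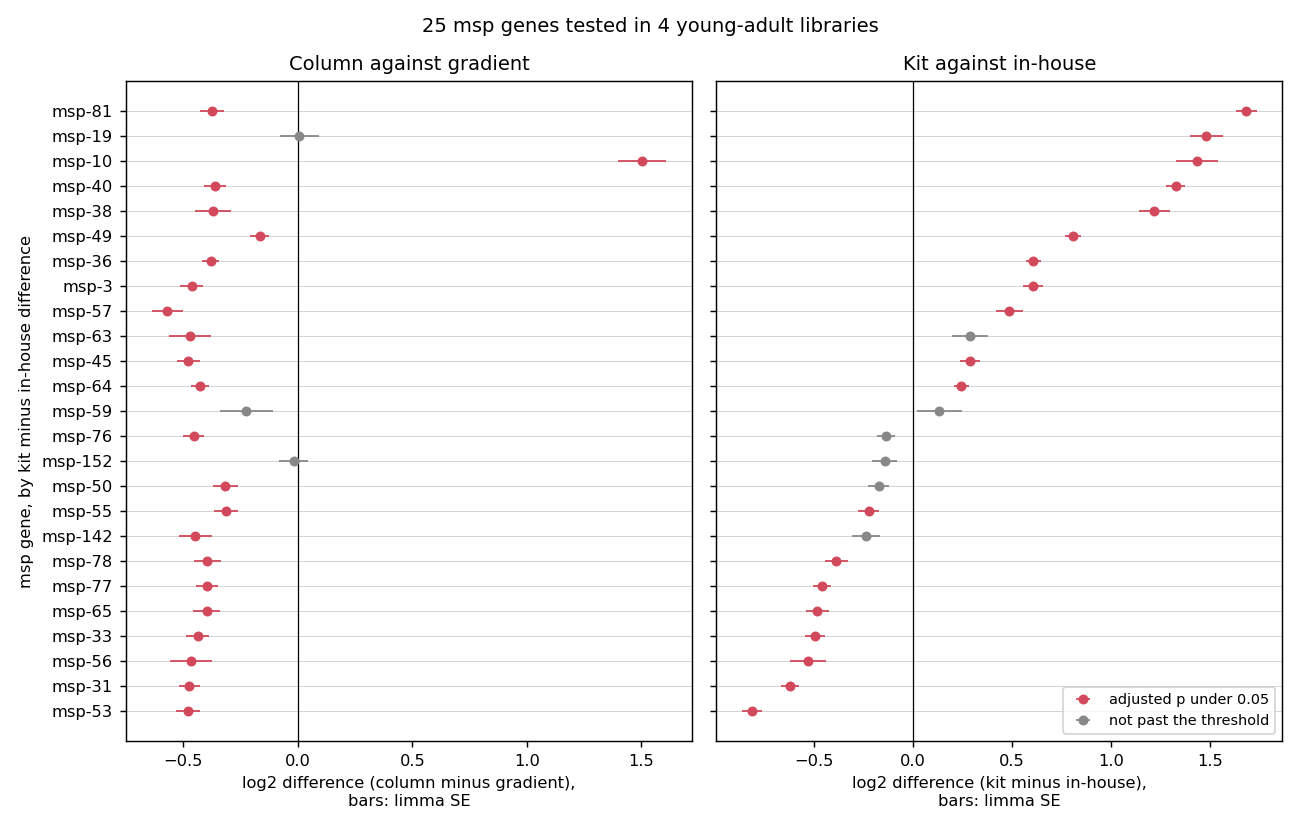
log2 difference of 25 msp genes between isolation methods (left, column minus gradient) and library preparations (right, kit minus in-house), with limma standard errors as bars and red points for an adjusted p under 0.05. On the left 21 genes lie near the median of -0.40 and msp-10 stands apart at 1.50, whereas on the right the genes spread from -0.81 (msp-53) to 1.68 (msp-81).

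Between stages, few members differed by more than the spread of the libraries. With all 8 libraries 3 of 26 members were lower in L4 worms and 1, msp-74, was called higher. Of the 13592 CDS tested 38.7% were called, 27.6% higher and 11.1% lower in L4 worms. Without library 8, 4 members were lower and 4 higher, against 69.3% of 13494 CDS called, 46.6% higher and 22.7% lower. Stage goes with experiment, specimen and gel excision in this design, and their contributions cannot be told apart.

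With all libraries msp-19 had the lowest log2 difference, at -1.40, but was not called (adjusted p = 0.140). Lowest relative to young adults among the called members was msp-59. It had 42.6, 30.6, 39.5 and 39.9 RPKM in young adults and 15.4, 22.5, 15.1 and 9.22 RPKM in L4 libraries 5 to 8. All L4 values lay under all young-adult values. Its log2 difference was -1.29 (SE 0.25, adjusted p = 0.0155) and without library 8 it was -1.08 (SE 0.18, adjusted p = 0.000314). In msp-49 the young adults had 79.2, 68.6, 136 and 124 RPKM and the L4 libraries 48.4, 57.6, 59.2 and 44.8 RPKM, again with no overlap (-0.89, adjusted p = 0.0260, and -0.82, adjusted p = 0.00994, without library 8).

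The gene msp-33 had 70.0, 49.4, 47.5 and 36.2 RPKM in young adults and 21.3, 18.8, 37.9 and 23.1 RPKM in L4 libraries, where library 7 reached into the young-adult range (-0.99, adjusted p = 0.0259, and -0.97, adjusted p = 0.00799, without library 8). In msp-76 a fall by 0.50 on the log2 scale was called without library 8 (adjusted p = 0.0445) but not with it (adjusted p = 0.0546). Of the 4 genes called lower without library 8, msp-76 was the most occupied.

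The single gene called higher with all libraries, msp-74, had 0.896, 0, 1.40 and 0.539 RPKM in young adults and 3.72, 3.12, 3.88 and 1.32 RPKM in L4 libraries. It passed the filter only through its L4 values, which rest on between 1 and 20 reads, so its differences on the log2(RPKM + 1) scale of 1.24 with all libraries and 1.49 without library 8 are given as a description and its call supports no direction.

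Without library 8 the other genes called higher were msp-56 (1.03, SE 0.27, adjusted p = 0.00669), msp-142 (0.78, adjusted p = 0.00766) and msp-77 (0.57, adjusted p = 0.0193). In msp-56 the young adults had 6.65, 4.38, 4.14 and 2.83 RPKM and the L4 libraries 13.5, 11.1, 6.31 and 1.98 RPKM, so libraries 7 and 8 did not leave the young-adult range upward. With library 8 in, these 3 had adjusted p of 0.360, 0.361 and 0.214. Thus no rise of a gene other than msp-74 was called with all libraries, and msp-142 and msp-77, called without library 8, are among the 6 most occupied members.

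Over the 26 members tested the median log2 difference was -0.42 with all libraries and -0.25 without library 8, beside 0.26 and 0.34 over all CDS. The count of calls depended on single libraries, among the msp genes and over all CDS. For the msp genes it was 0 without L4 library 5 (9 members at an unadjusted p under 0.05) and 0 without the young-adult column kit library (6 at an unadjusted p under 0.05), 1 without L4 library 6 or the gradient kit library, 2 without L4 library 7, the gradient in-house or the column in-house library, and 8 without library 8. Over all CDS it was 381 of 13349 without L4 library 5, 482 of 13512 without the column kit library and 449 of 13361 without L4 library 6. It was 1049 of 13524 without the gradient kit library, 628 of 13566 without the column in-house library and 1485 of 13438 without L4 library 7. Without the gradient in-house library it was 1892 of 13564, and without library 8 it was 9352 of 13494. Centring each library on its median, which takes the median over all CDS from 0.26 to -0.07, gave 1 member higher and 10 lower with all libraries, and 1 and 13 without library 8. Over all CDS, 2148 of 13592 were then higher and 2955 lower with all libraries, and 4171 and 4937 of 13494 without library 8.

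**Figure D4:**
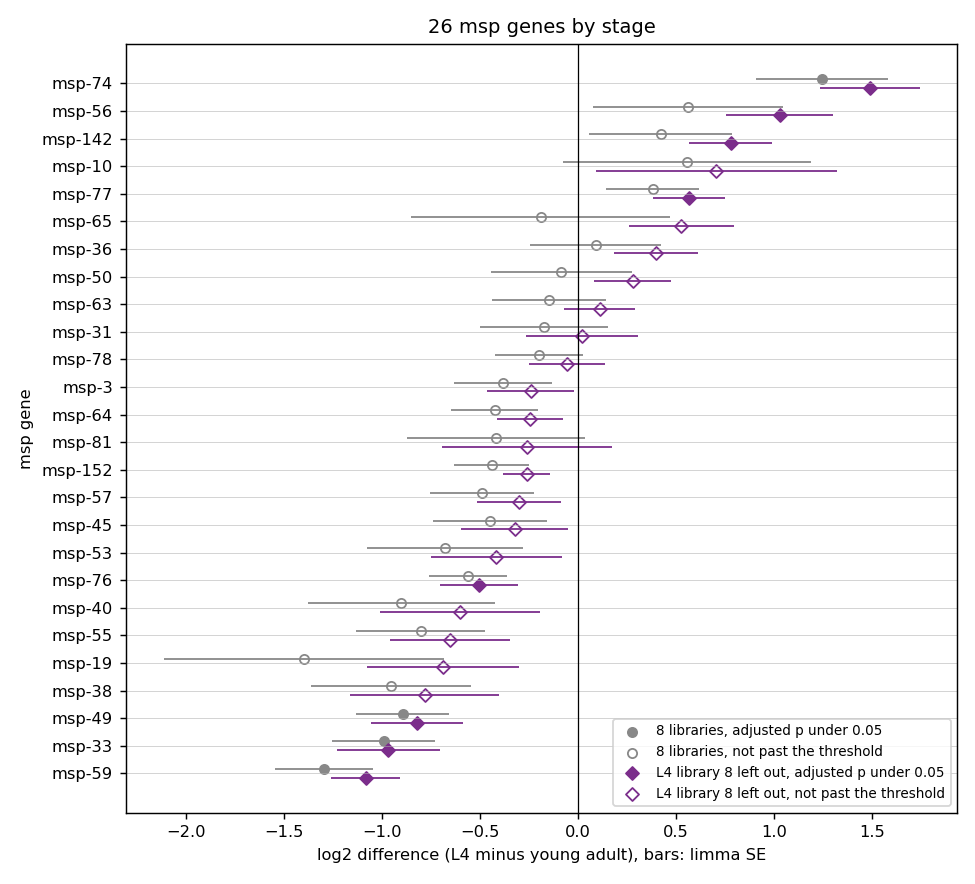
log2 difference between L4 and young-adult libraries for 26 msp genes, with limma standard errors as bars, for all 8 libraries (grey) and without L4 library 8 (purple); filled symbols have an adjusted p under 0.05. Leaving out library 8 moves the points to the right, and the genes then run from -1.08 (msp-59) to 1.49 (msp-74) around a median of -0.25.

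The library labelled L4 number 8 had less of the family than either stage. Its sum was 0.497 of the young-adult mean and 0.534 of the mean of L4 libraries 5 to 7. Of the 26 members tested, 18 were lower in it than in all the other libraries, against 15.3% of all CDS. In msp-19 it had no read, where 3 reads would be 1.98 RPKM and the other libraries lay between 5.34 and 19.0 RPKM. In msp-65 it had 2.63 RPKM from 4 reads, against 12.5 to 23.9 RPKM in young adults and 16.02 to 32.6 RPKM in L4 libraries 5 to 7. Its msp level thus lay under that of the stage on its label and under that of the stage its markers point to. It was also the shallowest library, and the part of depth or gel window in its msp level was not tested.

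Among the other L4 libraries, which share stage and experiment, libraries 5 and 6 were the most alike. Over 26 members with at least 1 RPKM in both, their median log2 difference was -0.03 with an SD of 0.44, against an SD of 0.19 over all CDS. On the log2(RPKM + 1) scale msp-10 alone differed more than 2-fold, with 4.37 RPKM in library 5 and 14.5 RPKM in library 6 (0.0964% of all CDS differed that much).

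Library 7 was lower than both, by a median of 0.22 against library 5 and 0.32 against library 6. On the log2(RPKM + 1) scale, 5 of 26 members differed more than 2-fold from library 5 (2.79% of all CDS) and 2 of 26 from library 6 (2.86% of all CDS). The 5 were msp-45 (106 RPKM in library 5 and 45.5 in library 7), msp-40 (68.9 and 29.6), msp-55 (43.1 and 17.5), msp-53 (39.2 and 18.4) and, in the other direction, msp-10 (4.37 and 17.5). The 2 were, on that scale, msp-53 and msp-55. Library 7 has 4999364 reads, so msp-55 rests on 36 reads there, and with 1 library for each window no test was possible.

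Genes that handle MSP in spermatocytes and crawling sperm were set beside the family. Of 10 such genes in the table, 8 rose in L4 worms without library 8 and none fell, beside 46.6% of all CDS higher and 22.7% lower. With all libraries 6 rose and none fell, beside 27.6% and 11.1% of all CDS, and with median centring or quantile normalization of all libraries 4 rose and none fell. Of 13592 CDS, 2148 were higher and 2955 lower with median centring, and 2359 and 2721 with quantile normalization. The median log2 difference of the 10 genes was 1.81 without library 8 and 1.41 with it, beside -0.25 and -0.42 for the msp genes and 0.34 and 0.26 for all CDS. The counts of 8 and 6 and both medians include spe-44. That gene passed the filter only through its L4 values, so its call supports no direction. The 10 genes summed to 94.6 to 107 RPKM in young adults, 343 to 398 RPKM in L4 libraries 5 to 7 and 86.9 RPKM in library 8. The family sums of the msp genes overlapped between the stages.

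In this list spe-18, needed for MSP to assemble into fibrous bodies, had 25.6, 18.1, 31.5 and 19.2 RPKM in young adults and 118, 119, 190 and 26.6 RPKM in L4 libraries 5 to 8 (2.54, adjusted p = 4.41e-06, without library 8, and 1.96, adjusted p = 0.0282, with it). The sperm phosphatases gsp-3 and gsp-4 rose by 1.40 (adjusted p = 7.71e-06) and 0.73 (adjusted p = 0.000733) on the log2 scale without library 8. With all libraries neither was called, at 0.87 (adjusted p = 0.157) and 0.46 (adjusted p = 0.169). The presenilin spe-4, a membrane protein of the organelle that carries fibrous bodies, rose by 2.17 without library 8 (adjusted p = 3.68e-07) and by 1.56 with it (adjusted p = 0.0498). The list also holds spe-44, a transcription factor of spermatogenesis that passed the filter only through its L4 values, at 0.425, 0.151, 0.684 and 0.469 RPKM in young adults and 19.8, 19.0, 22.3 and 0.833 RPKM in L4 libraries. In none of these genes did library 8 reach the other L4 libraries.

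On the column 1 of 9 tested genes of this list fell (spe-18) and none rose, beside 19.2% of all CDS lower and 19.8% higher. With the kit none of 9 was called, beside 35.9% of all CDS. The median log2 differences were 0.02 and 0.09, beside 0.02 and 0.10 over all CDS. Of the 6 sperm markers, fer-1, spe-9, spe-38 and spe-42 were under 1 RPKM in every young-adult library and passed the filter for stage only through their L4 values, so no count of calls is given for them. Of the others, spe-41, a channel of the sperm membrane, was at 1.28 without library 8 (adjusted p = 4.98e-05) and 0.88 with it (adjusted p = 0.0918), and spe-11, a sperm-supplied factor for the embryo, at 0.07 (adjusted p = 0.705) and 0.13 (adjusted p = 0.553). The part of these cells in the msp values was not tested.

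Other genes with an MSP domain also include members of the ssp, msd and msrp families and vpr-1, the homologue of human VAPB. Without library 8, 9 of 23 tested rose in L4 worms and 3 fell, beside 46.6% of all CDS higher and 22.7% lower, so both shares lay under the background. With all libraries 5 rose and 1 fell (27.6% and 11.1% of all CDS), and the balance turned to 2 higher and 5 lower with median centring and 2 and 3 with quantile normalization. Of 13592 CDS, 2148 were higher and 2955 lower with median centring, and 2359 and 2721 with quantile normalization. The median log2 difference of the 23 genes was 0.16 without library 8, -0.01 with it and -0.35 with it under median centring. The most occupied, msrp-2, had 342, 339, 188 and 207 RPKM in young adults and 787, 814, 589 and 180 RPKM in L4 libraries (1.48, adjusted p = 0.000308, without library 8, and 0.97, adjusted p = 0.130, with it, which is not a call). Without library 8 vpr-1 rose by 1.30 (adjusted p = 4.82e-05) and ssp-16 by 2.21 (adjusted p = 7.62e-06), while msd-4 was at 0.16 (adjusted p = 0.329). With all libraries these were at 1.16 (adjusted p = 0.0108), 1.69 (adjusted p = 0.0305) and -0.01 (adjusted p = 0.958). The 3 falls without library 8 were those of ssp-37, ssp-33 and msrp-5, and with all libraries ssp-33 alone was called. The gene ssp-37 had 40.7, 28.7, 25.8 and 19.7 RPKM in young adults and 0.313, 0.2498, 0 and 63.6 RPKM in L4 libraries, so library 8 was above all young adults (-4.61, adjusted p = 3.08e-08, without it and -3.17, adjusted p = 0.0697, with it). Without library 8 ssp-37 passed the filter only through its young-adult values, so its fall is given as a description. For ssp-33 and msrp-5 the differences without library 8 were -0.52 (adjusted p = 0.0233) and -0.40 (adjusted p = 0.0164). On the column 11 of 23 fell and 1 rose, with a median of -0.24, beside 19.2% of all CDS lower and 19.8% higher. With the kit 10 fell and 5 rose, with a median of -0.16, beside 10.0% of all CDS lower and 25.9% higher. The msp medians in these comparisons were -0.40 and 0.13.

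The genes through which the oocyte and the gonadal sheath sense MSP moved in both directions. Without library 8, 9 of 18 tested fell in L4 worms and 6 rose, beside 22.7% of all CDS lower and 46.6% higher. With all libraries 8 fell and 5 rose, beside 11.1% and 27.6%. The 9 falls include oma-2, inx-22 and acy-4, which passed the filter only through their young-adult values. For these genes the fall is given as a description. The 8 falls include oma-2 and inx-22. The falls included oma-1 and oma-2, zinc finger proteins required for oocyte maturation, at 123 to 194 RPKM and 132 to 218 RPKM in young adults and at most 2.78 RPKM and 0.341 RPKM in L4 libraries 5 to 7 (-5.59 and -7.14 without library 8, adjusted p = 3.10e-09 and 2.54e-10, and -4.16 and -5.38 with it, adjusted p = 0.0318 and 0.0282). The innexin inx-14, a gap junction subunit of the germ line, fell as well (-3.33, adjusted p = 1.13e-07, without library 8 and -2.60, adjusted p = 0.0226, with it). Among the rises was kin-2, the regulatory subunit of protein kinase A (0.79, adjusted p = 0.000669, without library 8 and 0.63, adjusted p = 0.0351, with it). The adaptor dab-1 was at -0.01 (adjusted p = 0.977) and 0.07 (adjusted p = 0.797).

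The ephrin receptor vab-1, which binds MSP on oocytes, rose from between 1.62 and 2.57 RPKM in young adults to between 7.53 and 9.42 RPKM in L4 libraries 5 to 7 (1.70, adjusted p = 3.54e-06), with 2.24 RPKM in library 8 (1.32, adjusted p = 0.0285, with it in). On the column 5 of 18 sensing genes rose and 4 fell, beside 19.8% and 19.2% of all CDS. With the kit 8 rose and 2 fell, beside 25.9% and 10.0% of all CDS.

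**Figure D5:**
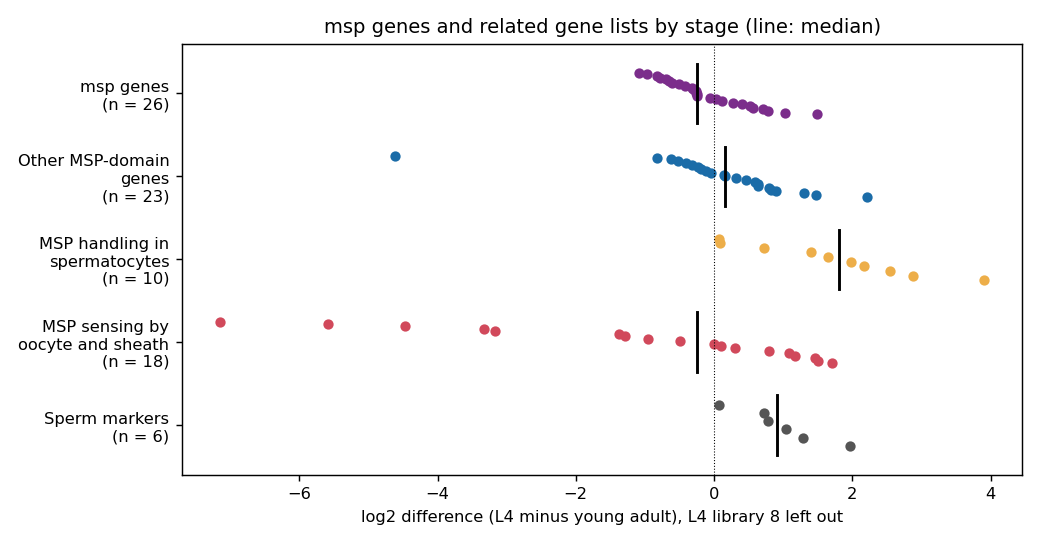
log2 difference between L4 libraries 5 to 7 and the 4 young-adult libraries for each tested gene of the msp family and of 4 related lists, with 1 point per gene and a vertical line at the median of each list. The medians are -0.25 for msp genes and 1.81 for genes that handle MSP. Genes that passed the filter only through 1 stage, such as spe-44, are among the points.

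The pattern of the family sum over the 8 libraries was matched most closely by hil-3, a linker histone gene. Likeness was measured as the SD over 8 libraries of the difference in log2(RPKM + 1) between a CDS and the family sum, over 6685 CDS outside the family with a mean of at least 10 RPKM. That SD was 0.16 for hil-3, 0.18 for glrx-21 (a glutaredoxin), 0.18 for nspd-9 (a nematode-specific peptide gene), 0.19 for fib-1 (fibrillarin, of the nucleolus) and 0.19 for F53B6.4, and its median over all 6685 was 0.588. The gene hil-3 had 18.7, 12.99, 24.3 and 20.4 RPKM in young adults and 20.7, 16.6, 15.3 and 8.70 RPKM in L4 libraries, lowest in library 8 like the family. These 5 are the closest of many, share the same 8 libraries and carry no test.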

How the data were processed

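The authors deposited 1 table of RPKM values (reads scaled by feature length and library reads), with a row for each CDS and a column for each of 8 libraries. Per the submitters' processing notes the tools were STAR 2.4, Bowtie2 2.2.4 and bcl2fastq 1.8.4, with no role named. The genome build and the treatment of reads with several matches are not given. The steps between RPKM values gave back whole reads, library totals and feature lengths (pandas 2.3.3 and numpy 2.4.6 in Python 3.11.15). Reads were whole within 0.0001 for all 19649 CDS above 0, 856 CDS were at 0 in every library, and between 99.6% and 99.9% of each library's reads lay in the table. Of the sequence names, 20051 matched a RefSeq locus tag and 454 did not.

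Differences on log2(RPKM + 1) were tested, two-sided, with limma 3.58.1 in R 4.3.3 (lmFit and eBayes with trend), with Benjamini-Hochberg adjustment over all CDS tested and a threshold of 0.05. A fold on this scale understates the change of rarely occupied genes. A CDS was tested where at least 2 libraries of the comparison had 1 RPKM or more. Isolation and preparation were additive terms over the 4 young-adult libraries, and stage was fitted over all 8 libraries as labelled and again without L4 library 8. The code was tested on simulated data. Intervals for shares are Wilson intervals from scipy 1.17.1.

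Named genes were the 6 members with the highest mean RPKM, up to 4 of the largest rises and falls per comparison, any msp member of a count of 5 or fewer, up to 4 of the most occupied genes per list, and the 5 CDS most like the family sum. The genes spe-44, spe-41, ssp-37, ssp-33, msrp-5, inx-14, vab-1, spe-11 and msp-65, the examples of clusters and levels, and msp-64 under isolation were picked with their values known. The members, lists and tests were chosen with earlier results of these data known. Among the listed symbols, 3 that handle MSP and 1 with an MSP domain had no match. Alternatives were other pseudocounts, filters and scalings, no abundance trend, voom on the recovered reads, and leaving out each library. No sequence of the genes was used, so the identity of the copies was not examined.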

Additional observations from a re-analysis of the deposited data

Results flagged for a closer look

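Among 63 groups of values tested for a sample far from the rest, 7 had one, where chance gives about 1 in 20. Library 8 was far under the other L4 libraries for msp-77 (69.8 RPKM), msp-81 (19.1 RPKM), msp-57 (15.8 RPKM) and msp-63 (3.53 RPKM). For msp-32, L4 library 7 was at 0 RPKM, against 1 to 7 reads in the other L4 libraries. Library 7 has 4999364 reads, against 26078844 and 21814060 in libraries 5 and 6, so these read numbers come from unequal depths. For the same gene the young-adult column kit library was the highest at 0.509 RPKM from 5 reads. The single read of msp-51 set its young-adult column in-house library apart at 0.0952 RPKM.

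In 3 genes the matched pairs of young-adult libraries went opposite ways, and these differences between pairs were not tested. The column minus gradient difference of msp-59 was -0.47 in-house and 0.01 with the kit, a gap of 0.48, and its kit minus in-house difference was -0.11 on the gradient and 0.37 on the column, the same gap of 0.48. For msp-152 the column minus gradient difference was -0.12 in-house and 0.08 with the kit, a gap of 0.20. For msp-19 it was 0.12 and -0.11, a gap of -0.23.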

How the results depend on the processing

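The number of msp genes called between stages (4, 1 higher and 3 lower) depended on scaling and on single libraries. It was 11 (10 lower) with median centring, 8 (8 lower) with quantile normalization and, without L4 library 8, 14 (13 lower) with median centring, 11 (10 lower) with quantile normalization and 9 (5 higher) with voom on recovered reads. Over 13592 CDS the calls were 5103 (2955 lower) with median centring and 5080 (2721 lower) with quantile normalization. Over 13494 CDS without library 8 they were, in the same order, 9108 (4937 lower), 8926 (4788 lower) and, with voom, 9532 (6490 higher). Leaving out 1 library at a time gave 0 to 8 calls, 0 to 4 higher and 0 to 4 lower, while the calls over all CDS ran from 381 to 9352. The 1 rise became 0 at a filter of 10 RPKM, at a pseudocount of 0.1 and with quantile normalization. The combinations without library 8 were chosen after the data were seen. On the column, the 1 rise (msp-10) became 0 at a filter of 10 RPKM, which leaves that gene out. The cause of the other shifts was not tested. Counts for isolation and preparation otherwise stayed within 1.5 times the value given. Of the results on single named genes under an alternative, 308 kept direction and side of the threshold, 28 lost the call, 12 gained it and 0 reversed. The median over members was lower in L4 worms under each alternative (-0.75 to -0.25) and on the column (-0.45 to -0.34), while between preparations it lay between -0.11 and 0.17. Leaving out a young-adult library leaves no residual degree of freedom for isolation and preparation, so those are values with no test. Summing members with identical proteins was not run, since no protein sequences were used. The young-adult libraries are matched by specimen, and isolation and preparation were fitted together as additive terms. For stage, no paired analysis was possible because the labels give L4 and young-adult libraries no shared replicate numbers.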
